A study of Mus musculus with 4 samples.

Results

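The 10 genes described here encode transcription factors of the ETS family: Ehf, Elf3, Elf5 and Spdef, which are known from epithelia, Spi1, Fli1 and Erg, which are known from blood and vessel cells, and Elf1, Ets1 and Ets2, which many cell types use. They are listed by name and are 10 of 21426 protein-coding genes that could be placed, with a strand, in the RefSeq gene table of GRCm38.p6. A total of 49 of 32011 distinct open regions belonged to them, because they lay at the 5′ end of one of these genes, within it, or nearer to its 5′ end than to that of any other protein-coding gene. The regions come from bulk ATAC-seq, which marks stretches of DNA that the Tn5 transposase can reach. Libraries were made from mouse salivary gland organoids (mSGOs), grown in Matrigel from submandibular gland of C57BL/6 mice, not irradiated, in WRY medium with EGF, FGF2, N2, insulin, dexamethasone, Y27632 and conditioned media for R-spondin1 and Wnt3a. There were 4 samples, which per the methods came from different, female mice: passages 1 and 2 were each sampled at labelled ages of 12 weeks and of 3 months. These labels name nearly the same age, so that age hardly differed among the samples. One pooled peak list was used for all of them, so values cannot be split by sample, replicate spread and depth per sample are unknown, and no test between samples, passages or ages was possible. Every value below is therefore a description of the pooled list, and a gene without a region is a gene for which the list holds none.

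All ETS factors bind DNA through a conserved domain that contacts the core GGAA. Ehf, Elf3 and Elf5 form an epithelium-specific subfamily with roles in the differentiation of glands, skin and airways, and Spdef acts in secretory cells such as goblet cells. Spi1 encodes PU.1, a master factor of myeloid and B cells, whereas Fli1 and Erg act in endothelium and in blood stem cells. Elf1 is active in lymphocytes and many other cells, Ets1 in lymphocytes and migrating cells, and Ets2 downstream of Ras and MAP kinase signaling. Members of the family often lie side by side on a chromosome, as remnants of old duplications. Ehf is next to Elf5 on chromosome 2, Ets1 next to Fli1 on chromosome 9, and Ets2 next to Erg on chromosome 16.

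Before the values, some starts with and without bases in a region are shown as RefSeq gives them (GRCm38.p6, 250 bases before to 50 after a start, 5′ to 3′ on the strand of the gene), with every GGAA or its reverse complement TTCC in capitals. Such windows were listed for Elf3, Elf5, Spdef, Erg, Elf1 and Ets2, with 10 windows in all. The first is the only Elf3 window (chr1:135258423-135258722, minus strand), of which all 300 bases lay in an open region. The second is the inner of 2 Elf1 starts (chr14:79515424-79515723, plus strand), with 246 bases in a region. No base of the other three lay in one: the outer Elf5 start (chr2:103411848-103412147, plus strand), the Ets2 start (chr16:95702157-95702456, plus strand) and the outermost of 3 Erg starts (chr16:95586544-95586843, minus strand).
Elf3: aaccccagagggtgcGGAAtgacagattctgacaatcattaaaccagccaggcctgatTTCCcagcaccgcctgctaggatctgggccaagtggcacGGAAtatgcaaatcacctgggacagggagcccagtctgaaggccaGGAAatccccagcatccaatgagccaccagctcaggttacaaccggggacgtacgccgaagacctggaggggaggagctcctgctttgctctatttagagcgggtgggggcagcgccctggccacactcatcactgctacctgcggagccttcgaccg
Elf1, inner start: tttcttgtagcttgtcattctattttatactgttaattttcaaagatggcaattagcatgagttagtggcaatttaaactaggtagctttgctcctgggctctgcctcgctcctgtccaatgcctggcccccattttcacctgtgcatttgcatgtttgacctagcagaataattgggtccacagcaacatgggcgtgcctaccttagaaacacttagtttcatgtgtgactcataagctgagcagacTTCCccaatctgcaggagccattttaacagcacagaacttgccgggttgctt
Elf5, outer start: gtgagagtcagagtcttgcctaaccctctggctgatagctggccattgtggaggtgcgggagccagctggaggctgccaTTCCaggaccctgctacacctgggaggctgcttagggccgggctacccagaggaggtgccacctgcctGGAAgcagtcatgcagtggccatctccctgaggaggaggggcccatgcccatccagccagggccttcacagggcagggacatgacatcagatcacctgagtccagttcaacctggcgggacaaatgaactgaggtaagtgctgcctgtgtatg
Ets2: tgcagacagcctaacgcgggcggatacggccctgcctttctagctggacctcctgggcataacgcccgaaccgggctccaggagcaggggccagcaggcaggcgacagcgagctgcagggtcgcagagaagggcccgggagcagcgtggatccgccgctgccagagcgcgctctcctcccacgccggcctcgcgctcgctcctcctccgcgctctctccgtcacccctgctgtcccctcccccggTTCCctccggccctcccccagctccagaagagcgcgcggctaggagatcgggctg
Erg, outermost start: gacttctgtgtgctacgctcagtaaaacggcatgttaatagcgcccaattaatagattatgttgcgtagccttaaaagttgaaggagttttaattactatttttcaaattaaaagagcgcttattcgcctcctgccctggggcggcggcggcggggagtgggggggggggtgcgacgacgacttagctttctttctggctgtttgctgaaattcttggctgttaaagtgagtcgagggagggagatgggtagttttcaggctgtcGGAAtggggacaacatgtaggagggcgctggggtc

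A region with its midpoint within 1 kb of the outermost 5′ end was present at 3 of the 10 genes, Ehf, Elf3 and Elf1, against 38.3% of all protein-coding genes. These were 2 of the 4 epithelial members and 0 of the 3 blood and vessel members. With so few genes, and no replicate to set them against, the counts are given without a test. At Ehf, the region chr2:103303129-103303510 had its midpoint 44 bp upstream of the 5′ end, with an 8.83-fold signal over the local background as the peak caller gave it, an IDR score (reproducibility, at most 1000) of 1000 and 2 summits. At Elf3, chr1:135258213-135258771 was centred 20 bp upstream, with a fold of 7.93, an IDR score of 1000 and 4 summits in 559 bp. Both folds lay above the median of 7.11 over all regions of the list (quartiles 5.70 and 9.32).

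Elf1 differed from these in that its 5′ end carried 2 weaker regions, both inside the gene. The first (chr14:79481306-79481813), centred 385 bp downstream, had a fold of 4.51 and an IDR score of 656. The second (chr14:79481879-79482040), at 785 bp, had a fold of 3.33, which is at percentile 0.687 of all regions. One more, chr14:79482299-79482461, lay just outside the limit at 1206 bp with a fold of 4.61. The 5′ end of Wbp4, a gene on the opposite strand that encodes a splicing factor, overlaps that of Elf1, and the first and second regions also lay within 1 kb of it. Whether these regions belong to Elf1, Wbp4 or both cannot be told apart. In the stricter set of 16006 regions with the lowest q-values, the Elf1 5′ end had none, while Ehf and Elf3 kept theirs.

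The other 7 genes had no region within 1 kb, and the distance to the next region set them apart. It was 3.79 kb at Ets2 and 6.54 kb at Ets1, 11.9 kb at Spi1, 48.5 kb at Fli1, 52.6 kb at Elf5, 69.3 kb at Spdef and 73.0 kb at Erg. The closest of these to the limit, that of Ets2 (chr16:95698437-95698799), had a fold of 4.66 and an IDR score of 555. The region next to Spi1 lay at the 5′ end of the zinc transporter gene Slc39a13, with a fold of 12.29. Thus Elf5 and Spdef, both labelled epithelial, stood with Fli1 and Erg in this respect and not with Ehf and Elf3, while Spi1 had a closer region. These distances were not set against those of other genes. These counts use the outermost start of a gene. With any start in the RefSeq promoter table allowed, which lists none for Ehf, Ets1, Spi1 and Fli1, the genes with a region were again Ehf, Elf3 and Elf1. This setting could only add genes, and only Elf5, Spdef and Erg, with a listed start further in, could have been added.

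**Figure D1:**
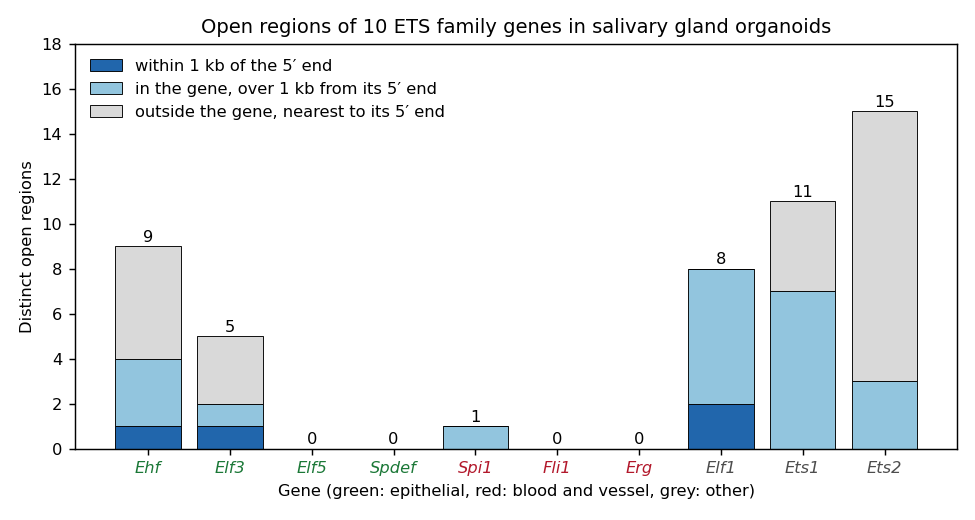
Number of distinct open regions (y axis) of each of the 10 genes (x axis), stacked by place: within 1 kb of the 5′ end, in the gene over 1 kb from that end, and outside the gene but nearest to its 5′ end. Ets2 had 15 regions, Ets1 11, Ehf 9, Elf1 8, Elf3 5 and Spi1 1, and Elf5, Spdef, Fli1 and Erg had 0.

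Within the genes, over 1 kb from their 5′ ends, 21 regions were listed in 6 of the 10 members, where 25.6% of all protein-coding genes had at least 1. Since long genes hold more regions, the members were set beside genes of 0.5 to 2 times their length. Whether a region lies in an exon or an intron was not analysed here. Ehf held 3 in 39.8 kb, and 4.77% of genes of similar length held as many or more. The strongest of them, chr2:103271441-103271853, had a fold of 8.88. It was followed by chr2:103277720-103278088, with a fold of 8.03, and chr2:103289609-103289959, with a fold of 4.85. Elf3, a gene of only 4.90 kb, held 1, a weak one with a fold of 3.27 (chr1:135256391-135256610), and 7.12% of similar genes held as many or more. Elf5, of 38.9 kb, held 0, as did 65.3% of genes of its length, and Spdef, of 16.6 kb, held 0, as did 79.1%. For Elf5 and Spdef an empty gene was thus the usual state.

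Ets1 held 7 regions in 122 kb, and 4.15% of genes of similar length held as many or more. The one nearest to its 3′ end (chr9:32749735-32750267) had a fold of 12.52, and that nearest to the 5′ end (chr9:32695599-32696226), 59.7 kb into the gene and 628 bp wide, a fold of 9.95. Of the others, 1 had a fold of 7.81, and 4 had folds from 4.39 to 5.16. Elf1 held 6 in 101 kb (4.18% of similar genes held as many or more), among them the strongest of all 49 regions, chr14:79527729-79528211, with a fold of 15.29, at percentile 97.2 of the list. Another of the 6, chr14:79515478-79515788, with a fold of 8.99, covered most of the inner Elf1 start printed above. Ets2, although only 18.6 kb long, held 3 (1.36% of similar genes held as many or more), with folds of 5.51, 7.03 and 5.86. These 3 genes thus held more regions than most genes of their length, also where the 5′ end had none.

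Among blood and vessel members, Spi1 held 1 region (chr2:91115074-91115386, fold 5.96) in its last 1 kb, closer to the 5′ end of the neighbouring Mybpc3 than to its own, 32.9 kb away, and 31.8% of similar genes held as many or more. Fli1 held 0 in 121 kb, as did 40.9% of similar genes, and Erg held 0 in 227 kb, as did 32.6%. Together, the 3 genes held 1 region in 382 kb, a rate of 0.262 per 100 kb, against 3.99 for the 4 epithelial members (100 kb in all), 6.62 for Elf1, Ets1 and Ets2, and 1.17 over all protein-coding genes. The epithelial rate rests on Ehf and Elf3 alone. In the stricter set, Spi1 held 0, so that no blood or vessel member had any region.

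Distal regions, with every protein-coding 5′ end over 1 kb away, were then assigned to the nearest such end, a measure in which regions within a gene can take part again. At least 1 such region was found for Ehf, Elf3, Ets1 and Ets2, 4 of the 10 members, against 40.4% of all protein-coding genes. Ets2 had 15, and 0.36% of genes with a similar stretch around their 5′ end (0.5 to 2 times its 202 kb) had as many or more. Its strongest, chr16:95827232-95827765, lay 125 kb downstream with a fold of 12.73, followed by chr16:95728788-95729426 (fold 11.39, 26.7 kb downstream) and chr16:95659450-95659821 (fold 10.51, 42.8 kb upstream, towards Erg). Ets1 had 11 in a stretch of 971 kb, and 11.3% of genes with similar stretches had as many or more. Ehf had 8 in 169 kb (4.37%), and the strongest, chr2:103238925-103239407, had a fold of 11.62 and lay 64.1 kb from the 5′ end, past the 3′ end of the gene. Elf3 had 4 in 58.4 kb (4.92%), of which chr1:135248466-135248788 had a fold of 8.49 at 9.85 kb, while chr1:135268122-135268657, with a fold of 7.62, lay 9.92 kb upstream, within the aminopeptidase gene Rnpep. The remaining ones were weak and lay 1.97 and 2.66 kb from the 5′ end. Their folds were 3.27 and 3.82, at percentiles 0.634 and 1.33 of the list. In the stricter set, Elf3 had 2 nearest regions.

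Elf5, Spdef, Spi1, Fli1 and Erg had 0 in this measure. Among genes with stretches like theirs, 0 was found for 49.5% at Elf5, 51.4% at Spdef, 73.3% at Spi1, 43.2% at Fli1 and 36.4% at Erg, so that the lack of regions is not unusual for any of them taken alone. Elf1 also had 0. Of the 6 regions within it, 5 were nearer to the 5′ end of Wbp4, 94 bp further into the gene, and 1 to that of Sugt1. With Wbp4 left out, a choice made after seeing the values, Elf1 had 5. A nearest 5′ end need not be that of the gene a region acts on. When genes of every type competed, including lncRNA genes and pseudogenes, Ets2 had 3, Ets1 had 2, Ehf 4 and Elf3 4. One region counted for Ets2 (chr16:95667905-95668439, fold 5.70) was centred 12 bp from the 5′ end of the lncRNA Gm31845.

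**Figure D2:**
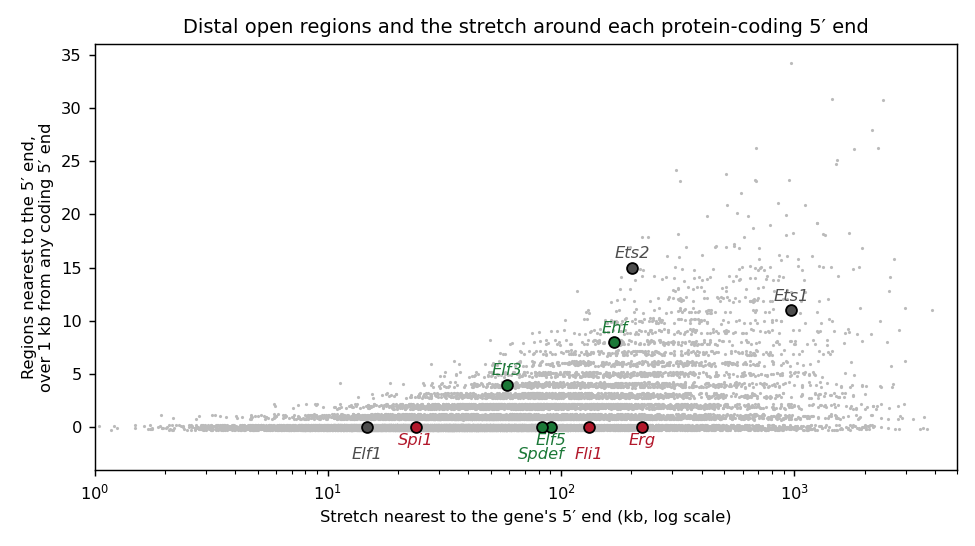
Number of regions nearest to each protein-coding 5′ end and over 1 kb from all such ends (y axis) against the stretch that lies nearest to that end (x axis, kb, log scale), for all protein-coding genes (grey points, spread slightly up and down) and the 10 members (circles). Ets2 (15 in 202 kb), Ehf (8 in 169 kb) and Elf3 (4 in 58.4 kb) lie high among genes with similar stretches, of which 0.36%, 4.37% and 4.92% have as many or more, and 6 members sit at 0.

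The 3 neighbouring pairs allow a comparison within 1 stretch of chromosome, with no other protein-coding 5′ end between the partners. Ehf and Elf5 are of nearly equal length (39.8 and 38.9 kb) and their 5′ ends face each other 109 kb apart. Ehf held 3 regions and Elf5 held 0. Between them lay 2, that of the Ehf 5′ end and chr2:103331742-103332079 (fold 5.89), 28.6 kb upstream of Ehf and 80.2 kb or more from Elf5. Beyond Elf5, the next region (fold 7.48) was 52.6 kb from its 5′ end, inside the catalase gene Cat. Here both partners are epithelial, and the regions gathered on the Ehf side.

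Ets1 and Fli1 are matched in length too (122 and 121 kb), with 5′ ends 92.8 kb apart and facing each other. Ets1 held 7 regions and Fli1 held 0. Both regions between them were strong, with folds of 9.13 and 11.89. The weaker lay 6.54 kb from Ets1, while the stronger, chr9:32591733-32592052, was 44.3 kb from the 5′ end of Ets1 and 48.5 kb from that of Fli1, so that its assignment to Ets1 turns on a small difference. Ets2 and Erg are of unequal length (18.6 and 227 kb), with 5′ ends 116 kb apart. Ets2 held 3 regions and Erg held 0. All 6 regions between them were nearer to Ets2 than to Erg, the closest to Erg at 73.0 kb, and their folds ran from 4.66 to 10.51. Each of them, like both regions between Ets1 and Fli1, was nearer still to the 5′ end of a lncRNA gene. For the weaker region near Ets1, that end (Gm31928) was 813 bp away. None of these regions was assigned to Ets1 or Ets2 when genes of every type competed. In each pair 1 partner thus had all regions found within either gene, and in the pairs with a vessel member it was the other partner. These are 3 pairs in 1 pooled list, and nothing was tested.

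**Figure D3:**
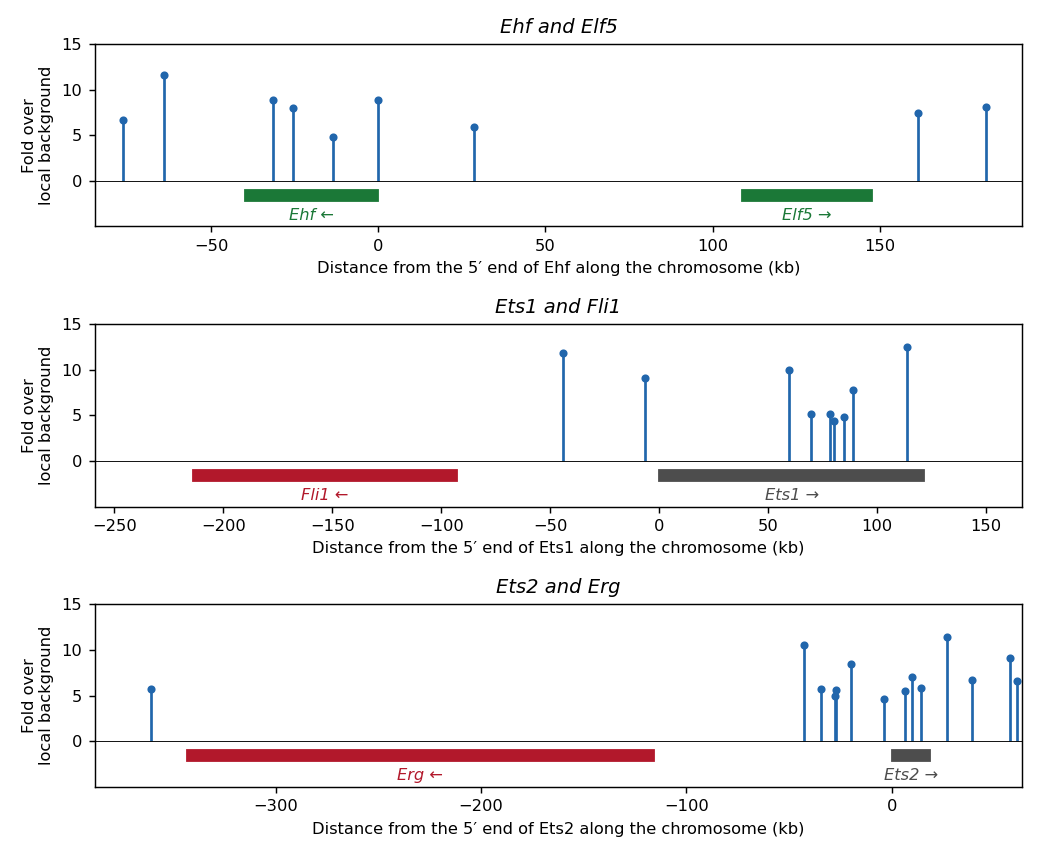
Open regions along the 3 neighbouring pairs, with the distance from the 5′ end of the first-named gene on the x axis (kb) and the fold over the local background on the y axis. Each stem is 1 region, bars below are the genes, arrows give the direction of transcription, and colors give the class (green epithelial, red blood and vessel, grey other). Elf5, Fli1 and Erg have 0 stems above them, while Ehf has 3, Ets1 has 7 and Ets2 has 3.

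The 49 regions varied in strength as the whole list does. Their median fold was 6.70 (range 3.27 to 15.29), against 7.11 over all regions, and 23 of 49 lay above that median. The median width was 384 bp, against 402 bp. An IDR score of 1000 was given to 25 of 49, and to 45.1% of the list, and 36 had more than 1 summit, as did 70.1% of the list. The 14 regions of Ehf and Elf3 had a median fold of 7.78, the 34 of Elf1, Ets1 and Ets2 one of 6.63, and both sets ran from below 4 to above 11. Both medians lay within the quartiles of the list.

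**Figure D4:**
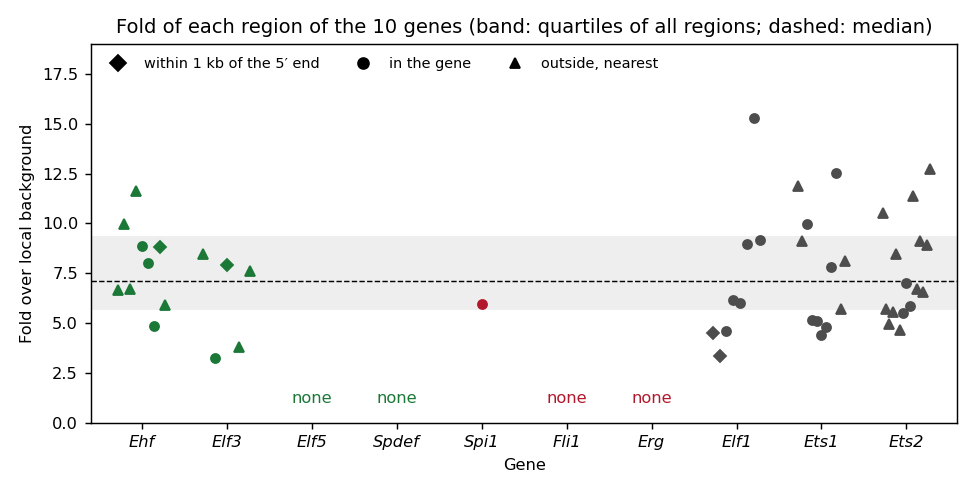
Fold over the local background (y axis) of each of the 49 regions by gene (x axis), with diamonds for regions within 1 kb of the 5′ end, circles for those in the gene and triangles for those outside. The grey band spans the quartiles of all regions (5.70 to 9.32) and the dashed line is their median (7.11). The Elf1 region at 15.29 is the highest, and both Elf1 diamonds lie below the band.

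The base composition of the starts was then examined, because the share of starts with a region rose with CpG content. In 21263 RefSeq promoter windows of protein-coding genes, at least 1 base lay in a region in 36.7%. From the lowest to the highest of 5 bins of CpG content (CpG observed over expected), this share was 3.18%, 9.96%, 40.5%, 62.7% and 67.0%. Of the 10 windows of the members, 2 had bases in a region. The Elf3 window had a CpG ratio of 0.46, in the middle bin. The inner Elf1 window had a ratio of 0.20 and a GC content of 44.7%, in the bin where 9.96% of windows had a region. Conversely, the outermost Erg window (ratio 0.94) and the Ets2 window (0.79, with 71.7% GC) belonged to the bins of 67.0% and 62.7%, yet no base of either lay in a region. The outer Elf5 window (0.11) and the Spdef window (0.33) belonged to bins where 3.18% and 9.96% did, and the inner Elf5 window (0.44) to that of 40.5%. The only Spdef window listed (chr17:27728902-27729201, minus strand) lay inside the gene, not at its outermost 5′ end (position 27731003), which the counts above use. At the outer Elf1 start, a CpG-rich window with a ratio of 1.08, the region began after the window's last base.

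**Figure D5:**
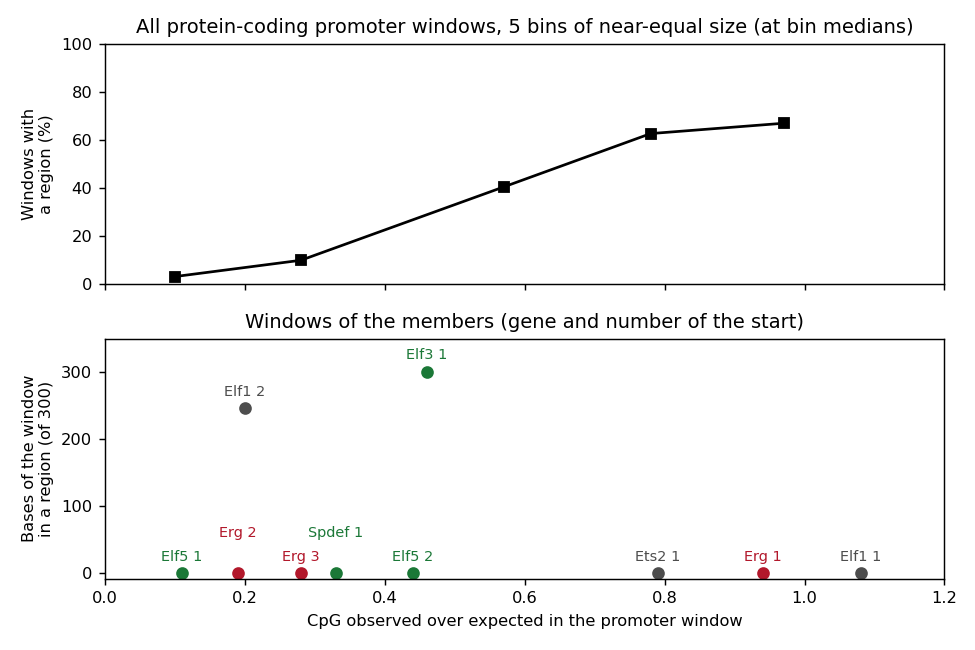
Top, percent of RefSeq promoter windows of protein-coding genes with at least 1 base in a region (y axis) against the median CpG observed over expected in each of 5 bins (x axis). Bottom, bases in a region, of 300 (y axis), for the 10 windows of the members at their own CpG ratio, numbered from the outermost start with a window. Elf3 (300 bases) and the inner Elf1 start (246) are the only windows above 0, and the CpG-rich windows of Ets2 and Erg lie at 0.

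The ETS core GGAA, searched on both strands, was present in each of the 10 windows, and in 95.7% of all windows, so that its presence carries little. The Elf3 window held 4, the Spdef window 7 and the Ets2 window 1, with a median of 3 over all windows. The longer GGAAGT, found in 24.8% of all windows, was in the Spdef window and the inner Elf1 window, and the consensus CCGGAAGT (5.15% of all windows), which contains both shorter forms, was in none of the 10. TGANTCA, bound by AP-1, was in the inner Elf1 window, 23 bases before the start, and in 6.99% of all windows. AACCNGTT, bound by Grainyhead factors (1.95%), and TGTGGT, bound by RUNX (15%), were in none. These are matches of letters and were not examined as binding sites.

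The rest of the family, 16 further ETS genes, was counted in the same way. A region lay at the 5′ end of 9 of them (56.2%, 95% Wilson interval 33.2 to 76.9, which covers counting error only), against 38.3% of all protein-coding genes. The strongest were at Etv5, of the PEA3 group that responds to FGF signaling (fold 12.04), and at Gabpa, a broadly used activator (fold 11.74). Etv6, a repressor, held 15 regions in the gene, a number not set against its length. Elk3, which acts with serum response factor, had none at the 5′ end but held 5 in the gene. Spib, Spic and Etv2, known from blood and early endothelium, had no region at the 5′ end or in the gene, and Spib had 1 nearest region. Fev, known from serotonergic neurons, had none of the 3 kinds.

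Markers of the cell types after which the members are classed were set beside them. A region lay at the 5′ end of 8 of 12 epithelial markers (66.7%, Wilson interval 39.1 to 86.2), namely the adhesion genes Epcam and Cdh1, the basal keratin genes Krt5 and Krt14, Krt8, Cldn4 and the epithelial regulators Esrp1 and Grhl2. It lay at 1 of 10 blood markers (Cd68, fold 4.58, interval 1.79 to 40.4%) and at 0 of 10 vessel markers (interval up to 27.8%). Over all protein-coding genes this share was 38.3%. The strongest folds at the epithelial 5′ ends ran from 2.95 at Krt5, lower than at Cd68, to 8.91 at Esrp1. The lists were chosen with earlier results of these data known, and the genes of a list are not replicates. The intervals cover counting error only, so setting that share against them is not a test. Among the markers without a region at the 5′ end were Krt18, Krt19, Cldn7 and Trp63 of epithelium, Ptprc and Cd3e of blood and Pecam1, Cdh5 and Kdr of vessels. Of these, Trp63 held 7 regions in the gene, Pecam1 held 3 and the others named held 0. In the full lists, 4 of 12 epithelial, 0 of 10 blood and 4 of 10 vessel markers held at least 1 region in the gene. Over all protein-coding genes that share was 25.6%, so this measure did not set vessel markers apart from epithelial ones. In bulk samples, fewer cells of a type and fewer open copies per cell cannot be told apart, and the part of such cells in the values of Spi1, Fli1 and Erg was not tested. Away from 5′ ends the lists were less apart. Of the vessel markers, 8 had at least 1 nearest region, with 28 in all, among them Flt1 with 8 and Cdh5 with 7, and so did 8 of the epithelial markers, with 37 in all, whereas 4 blood markers had 6 in all. At least 1 such region was found for 40.4% of all protein-coding genes, so that 4 of 10 blood markers is the background share. The 0 of Fli1 and Erg was thus not shared by most vessel markers, whose counts were not set against the stretches around their 5′ ends.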

How the data were processed

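Bulk ATAC-seq libraries of 4 mSGO samples were sequenced with paired-end reads of 75 bp. Alignment and peak calls by the authors used the pipeline of ENCODE for ATAC-seq (version and filters not given in the sources used here), and all samples went into 1 deposited list of 69545 lines and 32011 distinct regions. Both numbers differ from the approximate size that the methods give for the consensus list, and how the lists relate is not given in the sources used here. Used here were, as deposited, the IDR score, the fold at a summit (a ratio to local background) and the −log10 q-value. The submitters' processing notes name GRCm39 and HOMER, but 8 of 21 chromosomes had a region past the GRCm39 end. Within 1 kb of a region midpoint lay 38.3% of GRCm38.p6 5′ ends (3.77% when shifted by 50 kb) and 5.04% of GRCm39 ones, and the list was read as GRCm38.

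Lines with equal coordinates were joined into 1 region with the values of its summit with the lowest q-value. Strand came from the RefSeq promoter table (17492 of 21426 protein-coding genes) or else from GENCODE M39 by gene name (3934). This was also the source for Ehf, Ets1, Spi1 and Fli1, and coordinates of GRCm39 served only to check the build. Genes without a strand were left out. Counts were made in Python 3.11.15 with numpy 2.4.6 and pandas 2.3.3, and intervals with scipy 1.17.1. The counting was tested on simulated data. The 10 genes and the lists were chosen with earlier results of these data known. All 10 are named, each with its strongest regions; of other lists, genes are named by their number of regions, and other named genes or regions were chosen after their values were seen.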

Additional observations from a re-analysis of the deposited data

How the results depend on the processing

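No paired analysis was possible because the list pools all samples, and for the same reason none could be left out. Ehf and Elf3 had a region at the 5′ end under every alternative named here. For most alternatives this was fixed in advance, since the midpoints lay 44 and 20 bp from the 5′ end. Limits of 500 bp and 2 kb, any base of a region, or either end could not remove them. Allowing any RefSeq start could only add genes, whereas the stricter set could have removed both. In the stricter set by q-value, Elf1 lost its regions there, and numbers fell by construction: regions in the gene from 4 to 2 for the epithelial members, from 1 to 0 for the blood and vessel members and from 16 to 7 for Elf1, Ets1 and Ets2, and nearest regions from 12 to 6 for the epithelial members and from 26 to 14 for Elf1, Ets1 and Ets2. When strand was ignored and both ends counted, 1 blood or vessel member (Spi1, by its 3′ end) had a region. With 5′ ends of genes of every type competing, nearest regions of Elf1, Ets1 and Ets2 numbered 5. Over all protein-coding genes, the share so marked (38.3%) was 35.4% within 500 bp, 41.4% within 2 kb, 25.9% in the stricter set, 39.2% by any base of a region and 39.9% with either end. It was 40.8% with strand from GENCODE alone and 41.8% with any RefSeq start, 2 alternatives chosen after the data were seen, as was leaving out Wbp4. Taking the first summit listed changed none of the 6 strongest folds. Those of Ehf, Elf3 and Ets1 come from regions with 1 summit and could not change. Depth is unknown, which limits every statement that a region is missing, and sequence of regions outside the promoter windows was not analysed here.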

Other observations

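Across all 21263 promoter windows, the ETS consensus CCGGAAGT was present in 10.6% of the 7793 windows with bases in a region (95% Wilson interval 9.91 to 11.3) and in 2.00% of the 13470 windows without (1.78 to 2.26). Within the bin of highest CpG content, the shares were 12.4% of 2854 windows (11.3 to 13.7) and 4.76% of 1408 windows (3.76 to 6.00). The bare core GGAA was present in 95.8% and 95.7% of windows with and without a region, and within the CpG-rich bin in 94.7% and 86.9%. For TGANTCA the order was the opposite, with 4.99% of windows with a region and 8.14% of those without, while within the CpG-rich bin the shares were 2.80% and 2.27%, with overlapping intervals. AACCNGTT was found in 1.87% and 2.00%, and TGTGGT in 11.2% and 17.1% (9.04% and 6.04% within the CpG-rich bin). These values concern starts alone, and windows are not independent replicates. Which ETS factor, if any, is bound at these windows was not tested.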
